A study of Rattus norvegicus with 2 samples.

Results

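The miRNAs described here are rno-miR-34a, rno-miR-34b, rno-miR-34c and rno-miR-449a, 4 of the 350 rat miRNAs on the array, chosen by name with star (passenger) strands left out. Their levels were read from 2 one-colour miRNA arrays, 1 of carotid artery without injury and 1 of carotid artery at 10 days after balloon injury. In the balloon injury model an inflated catheter is drawn through the vessel, which strips the endothelium and stretches the wall, and smooth muscle cells then divide and build a neointima. Both groups were male Sprague-Dawley rats of 250 g, and no transgene, drug or other treatment is named for either. The sources used here do not say how many rats gave each RNA, or whether the uninjured artery came from another animal or from the other side of an injured one. With 1 array a group there is no replicate error, no test was possible and no p-value is given, so every difference below is one between these 2 arrays.

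miR-34a, miR-34b and miR-34c are the best known miRNAs that the tumour suppressor p53 switches on directly after DNA damage, oncogene activity or senescence. They lower proteins that drive the cell cycle and survival, among them cyclin-dependent kinases, Bcl2, Met and the deacetylase Sirt1, and so act with p53 to halt division. miR-34a has its own gene and is made in many tissues, including ageing vessel wall, whereas miR-34b and miR-34c come from 1 shared transcript that is best known from testis, lung and ciliated epithelium. miR-449a is a relative from a separate locus, switched on by E2F1 and abundant in multiciliated cells and testis.

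The mature sequences are printed because they show that the 4 miRNAs can pair with the same target sites and that one pair is nearly identical. All 4 names were found among RefSeq sequences on GRCr8. The array names carry no arm, and the 5′ arm was taken, from which the guide strand of this family comes. Capitals mark the seed, bases 2 to 8 from the 5′ end, which pairs with target mRNAs.
miR-34a: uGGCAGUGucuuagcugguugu
miR-34b: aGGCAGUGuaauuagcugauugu
miR-34c: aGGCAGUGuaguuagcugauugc
miR-449a: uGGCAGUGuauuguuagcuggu

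The seed GGCAGUG was the same in all 4. Among 693 rat mature miRNAs in the RefSeq table, 5 (0.722%) had this seed, and the other one was miR-449c-5p, whose name is not on the array. Downstream of the seed all 4 also held the letters UUAGCUG, read on the miRNA strand only, as did 6 of the 693 (0.866%). This stretch began at base 11 in miR-34a, at base 12 in miR-34b and miR-34c and at base 14 in miR-449a. miR-34b and miR-34c were both 23 bases long and differed by 2 substitutions, A11G and U23C, written as the miR-34b base, the position from the 5′ end and the miR-34c base. miR-34a differed from miR-34b by 4 edits, from miR-34c by 5 and from miR-449a by 6, where an edit is a substitution, insertion or deletion. Among other miRNAs named on the array, either arm included, the closest sequence to any of the 4 stood 7 edits away. The sources used here give no probe sequences, so whether the probes for miR-34b and miR-34c tell these apart was not tested.

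The hairpins lie at 3 places in the rat genome (GRCr8, RefSeq). The miR-34a hairpin is at chr5:165815952-165816053 on the plus strand, within the span of the lncRNA LOC103692514. The miR-34b hairpin, at chr8:60306609-60306692, and the miR-34c hairpin, at chr8:60306091-60306167, lie on the minus strand with 441 bases between them, and both fall within the span of the protein-coding gene Hoatz. The miR-449a hairpin is at chr2:46403910-46404000 on the plus strand, within the span of the lncRNA LOC134485839, and that of miR-449c lies 1436 bases upstream of it. miR-34b and miR-34c are thus close neighbours, known to share a transcript, and their values are not 2 independent observations.

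Each array file gives 1 signal intensity, on a linear scale, and 1 flag for every miRNA, and flag 1 was read as measured and flag 0 as not detected. The uninjured array measured 166 of the 350 miRNAs (47.4%) and the injured array 184 (52.6%), with 158 on both, 26 on the injured array only, 8 on the uninjured array only and 158 on neither. Detection was not a clean signal threshold: the lowest detected signals were 3.43 (uninjured) and 1.36 (injured), the highest undetected signals 8.84 and 5.98, and on either array 11 detected miRNAs were no brighter than the brightest undetected one. miR-143 and miR-145 of smooth muscle and miR-126 of endothelium were among the 158 measured on both arrays. With so many measured, their detection does not test the tissue label.

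**Figure D1:**
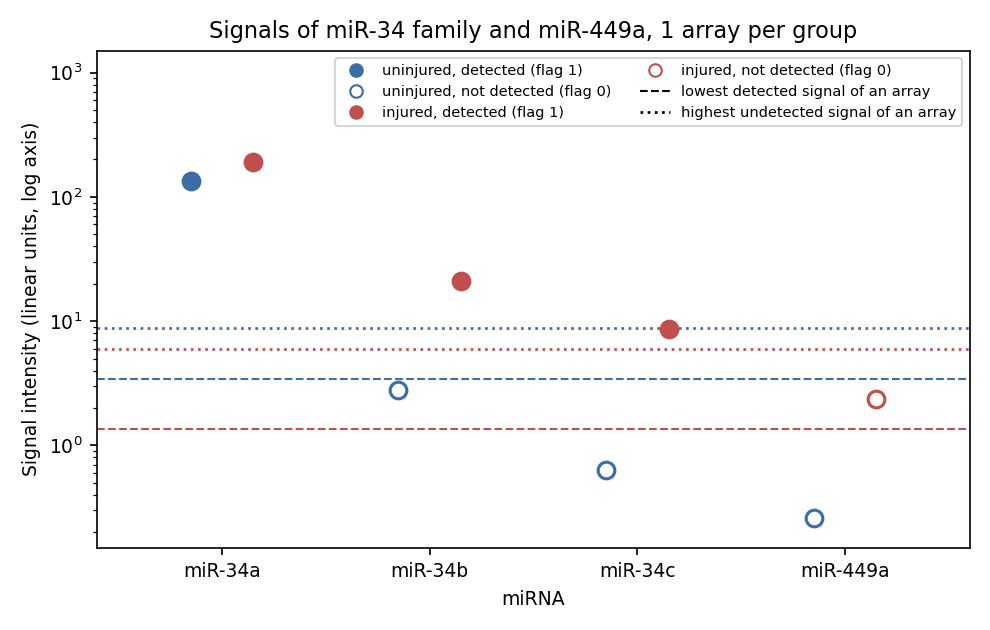
Signal intensity (log axis) of each of the 4 miRNAs on the uninjured (blue) and injured (red) array, with open symbols for signals that were not detected, dashed lines at each array's lowest detected signal and dotted lines at its highest undetected signal. miR-34a was detected on both arrays, miR-34b and miR-34c on the injured array only and miR-449a on neither; brightness depends on the probe, so heights are not to be compared between miRNAs.

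On the uninjured array only miR-34a of the 4 was detected, and on the injured array miR-34a, miR-34b and miR-34c were. Of the 3 members undetected in the uninjured artery, 2 were thus measured in the injured one. Over all miRNAs that were undetected in the uninjured artery, 26 of 184 (14.1%) were measured in the injured one. The pair that appeared is the pair made from 1 transcript, so it counts as 1 event rather than 2. In bulk tissue, more RNA per cell and more cells of a type that makes the miRNA cannot be told apart.

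The signal of miR-34a was 134 without injury and 191 after it. The injured value was the higher, and both lay far above the undetected signals. The signals were 0.141% and 0.196% of the summed miRNA signal of each array. To compare arrays, each log2 signal was taken relative to the 75th percentile of the 158 miRNAs measured on both. On that scale miR-34a was 1.51-fold higher after injury, a log2 ratio (injured minus uninjured) of 0.60, under the 2-fold difference used here as a descriptive threshold. In the same comparison a difference of at least 2-fold upward was found for 20 of 158 (12.7%) and downward for 6 (3.8%).

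The difference in miR-34a was of a size common on these arrays. Its log2 ratio was the 37th highest of 158, beside a median of 0.14 and quartiles of -0.14 and 0.58, so 23.4% of the miRNAs had a ratio as high or higher. A ratio above 0 was itself common under this scaling, with 103 of 158 (65.2%). The size of the miR-34a ratio depended on the scaling. It was 0.51 without scaling, 0.27 with quantile normalization, 0.15 when the arrays were matched on their medians, 0.10 when the 75th percentile was taken over all 350, and 0.0040 when the arrays were matched on the 6 control features detected on both. It stood 0.46 above the median of the 158, a distance that a scaling moving all miRNAs alike cannot change, and 0.30 above it with quantile normalization. The balance of 20 miRNAs at least 2-fold higher and 6 lower also depended on the scaling. These numbers were 17 and 7 without scaling, 12 and 11 with quantile normalization and 8 and 16 with matched medians. With the percentile over all 350 they were 7 and 20, and with matched control features 7 and 23.

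**Figure D2:**
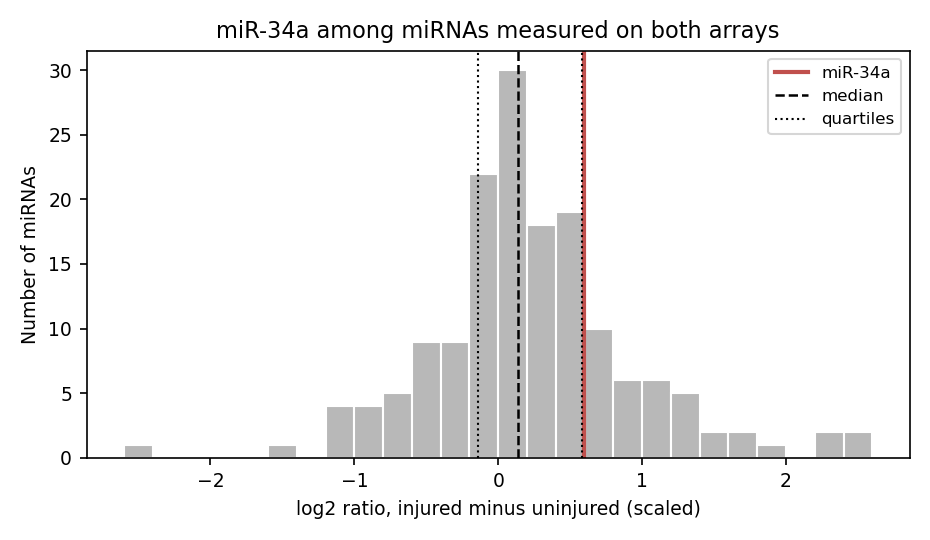
Histogram of the log2 ratio, injured minus uninjured, of the 158 miRNAs measured on both arrays, with the number of miRNAs on the vertical axis, the median (dashed), the quartiles (dotted) and miR-34a (red). miR-34a, at 0.60, lies just above the upper quartile of 0.58, with 37 of the 158 at or above it.

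The miRNAs whose pair of scaled log2 signals lay nearest to that of miR-34a, by Euclidean distance over the 2 arrays, were miR-324-3p, miR-151, miR-212 and miR-106b. miR-324-3p was the closest, at a distance of 0.08, with signals of 140 and 198 and a log2 ratio of 0.59. miR-106b, a miRNA of dividing cells, was at 0.32 with a log2 ratio of 0.87. With only 2 arrays this likeness describes brightness and ratio and nothing more.

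miR-34b was not detected on the uninjured array, with a signal of 2.81, and was detected on the injured array with a signal of 20.9. The uninjured signal lay under that array's lowest detected signal and under 6 of its 8 negative control features, while the injured signal lay above every negative control and every undetected miRNA on both arrays. Because the uninjured level has only a ceiling, the ratio is a lower bound, taken against the signal of the dimmest miRNA detected on the uninjured array, or against its own signal there if that was higher. On this basis miR-34b was at least 6.47-fold higher after injury, a log2 bound of 2.69. A bound of at least 2-fold was reached by 13 of the 26 miRNAs measured on the injured array only (50.0%). Against the highest undetected signal of the uninjured array the bound was 2.51-fold. Against the dimmest detected signal the bound stayed at or above 2-fold with each scaling, from 4.29-fold with arrays matched on the control features to 6.47-fold. The higher floor was used only with the scaling to the 75th percentile of the 158, and what other scalings do to that bound is described below.

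miR-34c was also detected on the injured array only, with a signal of 8.70 there and of 0.634 without injury. The uninjured signal lay under all 8 negative controls of its array. The injured signal lay above all 8 negative controls of either array and above its own array's highest undetected signal, but under the highest undetected signal of the uninjured array before scaling. Its bound was at least 2.69-fold, a log2 bound of 1.43, which places it too among the 13 of 26 with a bound of at least 2-fold.

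With choices changed 1 at a time the miR-34b bound held 2-fold throughout, but the miR-34c bound did not. It was 1.98-fold after matching the medians, 1.91-fold with the percentile over all 350 and 1.79-fold after matching the control features. Against the highest undetected signal it was 1.05-fold, a floor under which 5 of the 26 (19.2%), miR-34b among them, kept a bound of at least 2-fold. That floor was not combined with the other scalings in the computation. Matching the medians, taking the percentile over all 350 and matching the control features moved all log2 ratios alike, by -0.44, -0.50 and -0.59. Moved by any of these, the miR-34b log2 bound of 1.33 at the higher floor falls under 2-fold. Leaving out scaling moves it by -0.09, which keeps it above 2-fold. Quantile normalization does not move all miRNAs alike, so that case was not tested. Under the choices made, miR-34b and miR-34c differed in how firmly their gain in signal is placed. Which of them was more abundant cannot be read from these probes.

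**Figure D3:**
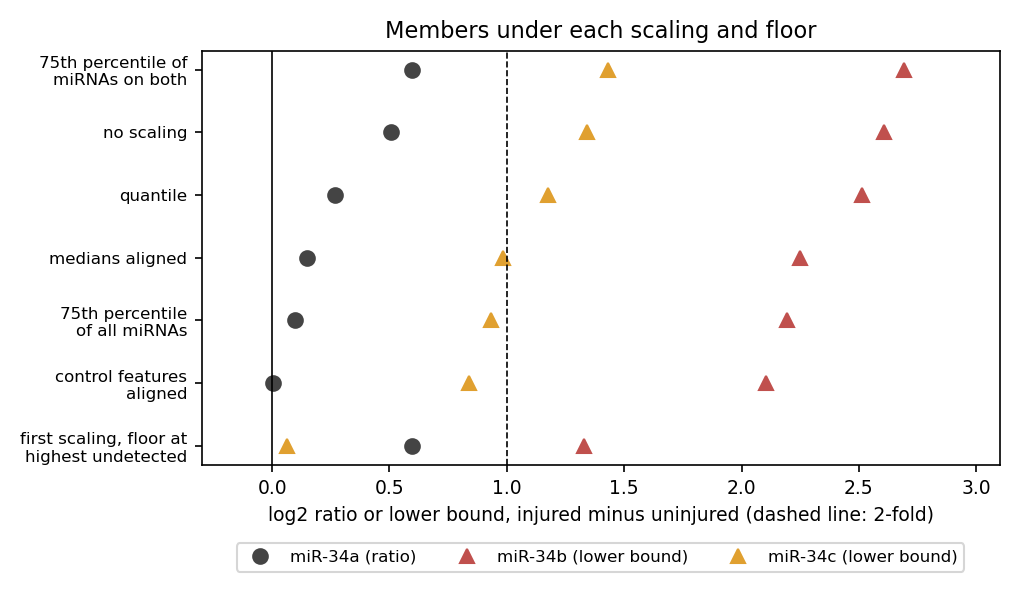
Log2 ratio of miR-34a (circles) and log2 lower bounds of miR-34b and miR-34c (triangles), injured minus uninjured, under 6 scalings and, in the bottom row, the first scaling with bounds set against the highest undetected signal; the dashed line is 2-fold. miR-34b stays beyond 2-fold in every row, miR-34c falls from 1.43 to between 0.064 and 1.34, and miR-34a ranges from 0.0040 to 0.60.

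miR-449a was detected on neither array, with signals of 0.263 and 2.36. The injured signal lay under 3 of the 8 negative controls and under 20 other undetected miRNAs of that array, although 2 miRNAs with a signal as low or lower were flagged as detected. No ratio or bound was computed for it. That miR-449a was not detected bears only on what its probe could see. Its paralogue miR-449c was not measured.

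Counting ratios and bounds together, 2 of the 3 members measured on at least 1 array, miR-34b and miR-34c, were at least 2-fold higher in the injured artery. None of the 3 was lower, and miR-449a had no ratio. miR-34b and miR-34c share a transcript and count as 1 event. Of all 192 miRNAs measured on at least 1 array, 33 (17.2%) were at least 2-fold higher on the same terms. That share mixes 20 of the 158 measured on both (12.7%) with 13 of the 26 measured on the injured array only (50.0%). miR-34b and miR-34c belong to the latter class, so 50.0% is the share to set beside them. The count of members was 1, miR-34b, in 3 of the 5 other scalings (medians, percentile over all 350, control features) and against the highest undetected signal.

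The authors' deposited table, which gives a linear ratio per miRNA without a detection flag, ranks these miRNAs differently. In the authors' deposited table the ratio of injured to uninjured was 13.7 for miR-34c, 8.98 for miR-449a, 7.44 for miR-34b and 1.42 for miR-34a, the 4th, 5th, 8th and 80th highest of 349. These values equal the injured signal over the uninjured signal within a relative tolerance of 1e-05 for all 349, so undetected signals enter them as they are. The order of miR-34c above miR-34b comes from uninjured signals of 0.634 and 2.81, both undetected. The ratio of 8.98 for miR-449a rests on 2 undetected signals. Of the 12 highest ratios in the authors' deposited table, 1 belongs to a miRNA measured on both arrays, 8 to miRNAs measured on the injured array only and 3 to miRNAs measured on neither. A ratio of at least 2 in the authors' deposited table was held by 14 of 158 miRNAs measured on neither array (8.86%), by 17 of the 26 measured on the injured array only (65.4%) and by 48 of all 349 (13.8%).

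**Figure D4:**
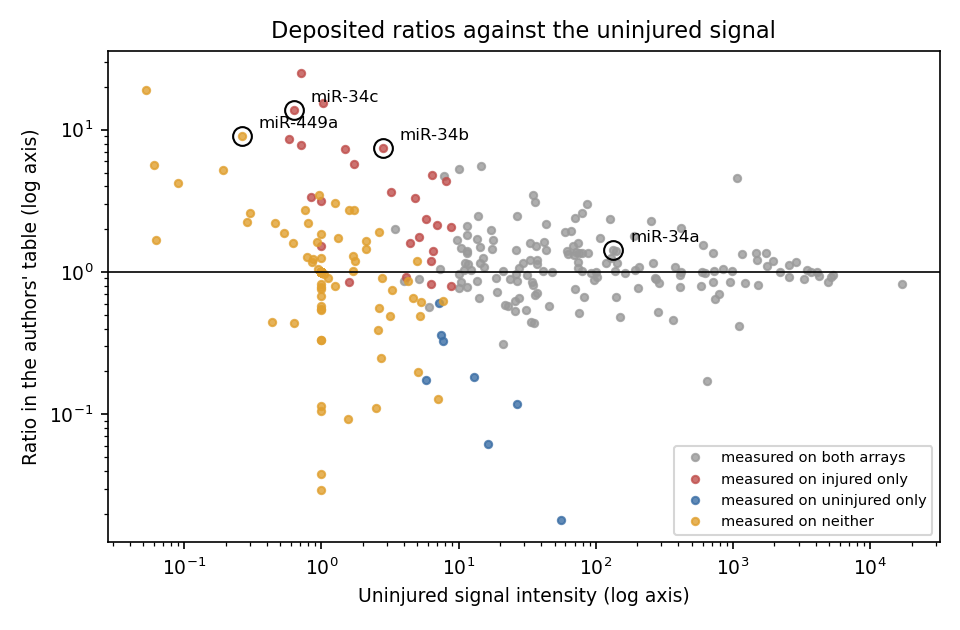
Ratio of injured to uninjured in the authors' deposited table against the uninjured signal intensity (both log axes) for 349 miRNAs, coloured by the arrays on which each was measured, with the 4 members circled. miR-34c (13.7), miR-449a (8.98) and miR-34b (7.44) lie among high ratios at uninjured signals under 3, all undetected there, whereas miR-34a (1.42) lies among miRNAs measured on both arrays.

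Other miRNAs tied to p53 by general knowledge were set beside the miR-34 genes. The first list held 10 miRNAs that p53 is known to raise. Of these, 3 were measured on both arrays, 1 on the injured array only and 6 on neither, and none was at least 2-fold apart in either direction. Their median log2 ratio was 0.10, beside 0.14 for all 158. Without scaling it was 0.01, and under each of the other scalings it was below 0, as low as -0.49 with the control features matched. The median of all 158 was below 0 under the same scalings as the list. It was 0.05 without scaling, -0.03 with quantile normalization (-0.06 for the list) and -0.45 with the control features matched. miR-107, which lowers cyclin-dependent kinase and HIF1 pathway members, was nearest to 0 with a log2 ratio of 0.10 and signals of 419 and 422. miR-22, a miRNA of senescence and muscle, was the farthest, with a log2 ratio of 0.33 and signals of 2888 and 3412. miR-194 had a log2 ratio of -0.27. miR-192, which is made with miR-194, was measured on the injured array only, with a bound of at least 1.28-fold, and no bound above 1 against the highest undetected signal. miR-215 and the miR-200 family were measured on neither array.

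The second list held miRNAs whose processing from the primary transcript p53 is known to favour. All 3 that were on the array were measured on both, none was at least 2-fold apart, and their median log2 ratio was -0.19. miR-143, of smooth muscle, had that ratio, miR-145 had -0.55, and miR-16, which lowers cyclins, had 0.54. With the control features matched all 3 were below 0, miR-16 at -0.055 and miR-145 at -1.14, beside a median of -0.45 for all 158. With the percentile over all 350 miR-145 was also past 2-fold lower. With quantile normalization the list's median was 0, a value fixed in advance. Its median member, miR-143, is the brightest miRNA on both arrays, and that scaling gives equal ranks equal values.

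The third list held 11 miRNAs grouped here as lowered when p53 is active or when E2F or Myc activity falls, set as the counterpart of the miR-34 genes. Whether each of them, miR-221 and miR-222 included, answers to p53 in this tissue was not tested. All 9 members measured on both arrays had a ratio above 0, 7 of them by at least 2-fold, with a median log2 ratio of 1.35. Over all 158 miRNAs 65.2% were above 0 and 12.7% at least 2-fold higher, and these 7 are among the 20 that make up the latter. miR-17-5p, a proliferation miRNA of the miR-17-92 cluster, was the farthest from 0, 5.06-fold higher with signals of 7.78 and 37.1. Its uninjured signal was flagged as detected but lay under that array's highest undetected signal (8.84) and highest negative control (8.19), so this fold is uncertain. The other 6 past 2-fold were miR-20a (3.32-fold), miR-221 (2.78-fold), miR-93 (2.65-fold), miR-19b (2.55-fold), miR-92a (2.30-fold) and miR-222 (2.02-fold). miR-25 was nearest to 0, with a log2 ratio of 0.69. miR-18a and miR-19a were measured on the injured array only, like miR-34b and miR-34c, with bounds of at least 3.39-fold and 4.62-fold (1.32-fold and 4.26-fold against the highest undetected signal). All 9 stayed above 0 under each scaling, while the share of all 158 above 0 was counted under the first scaling only. The number at least 2-fold higher was 6 without scaling (17 of all 158) and 4 with quantile normalization (12 of 158). It was 3 with the medians matched (8 of 158) and 2 with the percentile over all 350 (7 of 158). With the control features matched it was also 2 (7 of 158), and the median of the 9 was 0.76. The median of all 158 was then -0.45. The list was chosen with these values known, so its direction is not independent evidence.

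The last list held miRNAs that lower p53 itself. Its 3 members on the array, miR-125b-5p, miR-30d and miR-25, had log2 ratios of -0.03, 0.13 and 0.69, with none at least 2-fold apart. Their median of 0.13 was 0.04 without scaling, 0 with quantile normalization and below 0 under the other 3 scalings. The median of all 158 was also below 0 under those 3. With the control features matched it was -0.45, beside -0.46 for the list.

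**Figure D5:**
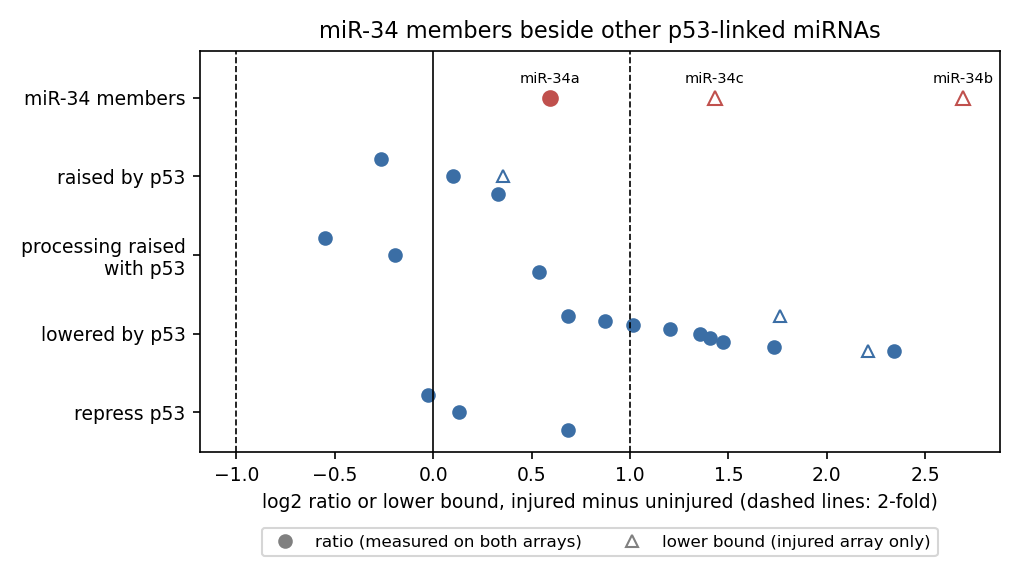
Log2 ratio (circles, measured on both arrays) or log2 lower bound (open triangles, injured array only), injured minus uninjured, of the miR-34 members in the top row and of 4 lists of p53-linked miRNAs below; dashed lines are 2-fold and miRNAs measured on neither array are not drawn. Under the scaling drawn, no miRNA of the list raised by p53 lies beyond 2-fold (4 of its 10 were measured). Of the list marked lowered by p53, 7 of the 9 circles lie beyond 2-fold, a count between 2 and 6 under the other scalings. That list also holds miRNAs grouped by a fall in E2F or Myc activity, and whether each answers to p53 here was not tested. Over all 158 miRNAs measured on both arrays 20 are at least 2-fold higher, and between 7 and 17 under the other scalings. The lists were chosen with these values known.

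Some markers of other cells also differed between the arrays. Signals and their sums are given before scaling, and ratios under the first scaling unless another is named. Of the 8 general epithelial markers, none of them specific to ciliated cells, 7 were detected on neither array. The miR-200 family (miR-200a, miR-200b, miR-200c, miR-141 and miR-429) lay at a signal of 1 or less on both. The measured member, miR-205, had signals of 11.4 and 20.8, a log2 ratio of 0.95. The 8 signals summed to 26.6 without injury and 27.6 after it, but these sums include undetected signals, such as 7.01 and 0.892 for miR-375. All 4 leukocyte markers were measured on both arrays, and their summed signal was 213 without injury and 486 after it, with miR-142-5p at 5.61-fold higher and miR-150 at a log2 ratio of -0.50. The 4 listed nerve markers miR-124, miR-137, miR-138 and miR-9 were measured on the uninjured array only, with summed signals of 106 and 7.83. Other miRNAs of neural tissue, outside that list, did not all go the same way. miR-9* was measured on the uninjured array only (signals of 12.9 and 2.37), but miR-219-5p on the injured array only (6.41 and 30.9). miR-128 was measured on both (32.9 and 39.8). The erythroid miR-451 and miR-144 summed to 677 and 125. The smooth muscle miR-143 and miR-145 summed to 17749 and 14465. The endothelial miR-126 had signals of 592 and 587, a log2 ratio of 0.08 that was 0.21 with quantile normalization and -0.51 with the control features matched. Of the striated muscle markers, miR-206 and miR-208 were detected on neither array and miR-499 had a log2 ratio of -0.29. Outside that list, the muscle miRNAs miR-1, miR-133a and miR-133b, which smooth muscle also makes, were measured on both arrays with log2 ratios of -1.58, -1.09 and -1.03, and are 3 of the 6 miRNAs at least 2-fold lower. The part of these cell types in the miR-34b, miR-34c and miR-34a differences was not tested.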

How the data were processed

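Total RNA was extracted with Trizol, checked on a Bioanalyzer and labelled with Cy3, per the labels' protocols. The deposited per-array files give a signal intensity on a linear scale and a flag for 350 miRNAs and 22 control features. Scanner software, background subtraction and normalization before deposit were not given in the sources used here. The flag is not defined, but every one of the 8 negative controls has flag 0 on either array. On each array 109 miRNAs are listed at exactly 1, and 27 (uninjured) and 24 (injured) undetected ones lie under 1. The series value table deposited by the authors holds a linear ratio to the uninjured array.

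From each log2 intensity the array's 75th percentile was subtracted, taken over those 158 miRNAs with flag 1 on both arrays (intensities of 401 and 377), which raised every log2 ratio by 0.09. Ratios, bounds, lists and edit distances were computed with Python 3.11.15, pandas 2.3.3 and numpy 2.4.6, after a check on simulated data. The named miRNAs are the 4 members; in each p53 list those 2-fold apart, nearest to or farthest from 0; and the 4 nearest neighbours of miR-34a. The rule also named neighbours in signal of members on the injured array only, left out because brightness depends on the probe; others named here were chosen after their values were seen. Members and lists were chosen with earlier results of these data known. Alternatives were 5 scalings, the deposited ratio and a higher floor. The number of arrays limits the precision.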

Additional observations from a re-analysis of the deposited data

How the results depend on the processing

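No replicate could be left out and no alternative measures replicate error. The log2 ratio of miR-34a was 0.60 as reported, 0.51 without scaling and in the deposited ratio table, 0.27 with quantile normalization, 0.15 with arrays matched on their medians, 0.10 with the 75th percentile over all 350 and 0.0040 with arrays matched on the control features. Over the same scalings the log2 bound of miR-34b was 2.69 as reported, then 2.61 without scaling, 2.51, 2.25, 2.20 and 2.10, with 2.90 for the deposited ratio and 1.33 against the highest undetected signal. That of miR-34c was 1.43, then 1.34, 1.17, 0.99, 0.93 and 0.84, with 3.78 for the deposited ratio and 0.064 against the highest undetected signal. For miR-449a, measured on neither array, only the deposited ratio gives a value, 3.17 on the log2 scale. Of the 4 members, 2 were at least 2-fold higher as reported, without scaling and with quantile normalization, 3 by the deposited ratio, and 1 under each other alternative. The scalings moved the median ratio of the 158 miRNAs by -0.09 (none) to -0.59 (control features). No paired analysis was possible because each group has 1 array. Signals under 8.84 without injury and under 5.98 after it overlap undetected ones, so differences among them could not be resolved.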
